A study of Mus musculus with 7 samples.

Results

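Interferon-stimulated genes were followed here in mouse neural stem cells: 40 genes were listed by symbol, and 38 of the 18145 genes with values are among them. Zbp1, a Z-nucleic acid sensor, and Sp100, a nuclear body protein, were not analysed here. RNA was sequenced at passage 1 from 2 lines labelled Tet-TMut (TMut), 2 lines labelled Tet-TFoCa (TFoCa) and 3 wild-type (WT) lines, with 7 libraries in all. Tet-TFoCa is the spelling of the sample labels, and Tet-FoCa that of the design text. The study's question, by its title, is what hydroxymethylated DNA does as opposed to formylated and carboxylated DNA. These are successive oxidation products of 5-methylcytosine made by TET enzymes. The labels name no other allele or agent, and they do not say which TET genes or which oxidation step each mutant genotype affects, how the lines were derived, or whether lines of a genotype share a clone or an animal. RNA levels of Tet1, Tet2 and Tet3 therefore do not check the genotypes.

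Interferons are secreted proteins that a cell releases after sensing foreign nucleic acid. Type I interferon acts through its receptor and the kinases JAK1 and TYK2 on a complex that holds STAT2 and IRF9 and binds the interferon-stimulated response element, and interferon gamma acts at gamma-activated sites and raises IRF1. The genes they induce encode sensors and transcription factors, which feed the response, and effectors, which bind RNA, modify proteins or block viral entry and release. The 38 genes were accordingly read as 8 sensors and factors and 30 effectors. Eif2ak2, Oas1a and Oasl2, whose proteins also respond to double-stranded RNA, were placed among the effectors.

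Levels are normalized counts, which are reads per gene divided by a scaling factor of each library, and log2 fold changes are on the log2(normalized count + 1) scale with their standard error (SE). A gene was called higher or lower at a Benjamini-Hochberg adjusted p under 0.05 from limma, fitted over all 18134 genes tested and all 7 libraries (n = 2 TMut, 2 TFoCa and 3 WT). All 38 genes passed the filter on low values. Between 33340167 and 62545457 reads fell in genes in each library, and the 38 genes held from 0.0336% to 0.0763% of them. Of 11 neural stem cell markers, 9 fell and 1 rose in TMut against WT, and 2 fell and 0 rose in TFoCa against WT. Their median log2 fold change against WT was -2.59 in TMut and -0.64 in TFoCa. Their summed level was 129017 to 154315 normalized counts in TMut, 156615 to 165906 in TFoCa and 184488 to 192291 in WT. Most of the sum in TMut was Vim, the marker that rose. Vim had 113660 and 101260 in TMut, 84912 and 88637 in TFoCa, and 65556 to 70733 in WT. The sums therefore understate the fall of the other markers in TMut. Of 12 mesenchymal and fibroblast markers, 5 rose and 3 fell in TMut, and 10 rose and 0 fell in TFoCa, each against WT, with sums of 283614 to 379527 in TMut, 433302 to 492932 in TFoCa and 161114 to 177941 in WT. Of 7 endothelial markers, 2 rose and 1 fell in TMut, and 0 rose and 1 fell in TFoCa, with sums of 1730 to 2580 in TMut, 513.6 to 1490 in TFoCa and 1492 to 2172 in WT. Over all genes tested, 18.4% rose and 20.4% fell in TMut, and 5.25% and 3.52% in TFoCa. In TMut the endothelial counts and the 3 mesenchymal markers that fell are near these shares. Of 14 markers of microglia and other leukocytes, Cd68 had values, at 314 and 330 in TMut, 216 and 264 in TFoCa and 214 to 223 in WT, and the other 13 were not analysed here. Limma called Cd68 higher in TMut than in WT (log2 fold change 0.55 ± 0.19, adjusted p = 0.0483) and did not call it in TFoCa. In bulk RNA a change in the share of cells of a type and a change in RNA per cell cannot be told apart, and the part of these markers in the results below was not tested.

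In TMut lines 22 of the 38 interferon-stimulated genes rose against WT and 1 fell. Of all genes tested, 18.4% rose and 20.4% fell (38.8% either way). The median log2 fold change of the 38 genes was 1.46, beside 0.002 over all genes tested. In 32 of the 38 both TMut libraries lay above every WT library, as they did for 33.4% of all genes, and in 2 both lay below, beside 33.6%. In TFoCa lines 0 of the 38 rose and 0 fell by limma, beside 5.25% and 3.52% of all genes (8.77% either way). Of these 38 genes, 11 had an unadjusted p under 0.05 in TFoCa against WT by limma, a count not made over all genes. In the same comparison edgeR's quasi-likelihood test called 2 (Irgm1 and Ifi35 higher) and limma-voom called 0. DESeq2 called 8 (Irf1, Eif2ak2, Gbp2, Irgm1, Ifi35, Ifi44 and Lgals3bp higher, Oas1a lower). Over all 18134 genes tested, in either direction, edgeR called 1606, limma-voom 1540 and DESeq2 2947. The median log2 fold change in TFoCa was 0.37, beside -0.02 over all genes, and both TFoCa libraries lay above every WT library for 13 genes and below for 1, beside 21% and 24.2% of all genes. Both mutant genotypes share the WT libraries. Set directly against TFoCa, TMut had 15 of the 38 genes higher and 1 lower, beside 17.3% and 18.5% of all genes (35.8% either way), with a median log2 fold change of 1.05 beside -0.002. Both TMut libraries lay above both TFoCa libraries for 27 of the 38 and below for 1, beside 33.9% and 33.5% of all genes.

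**Figure D1:**
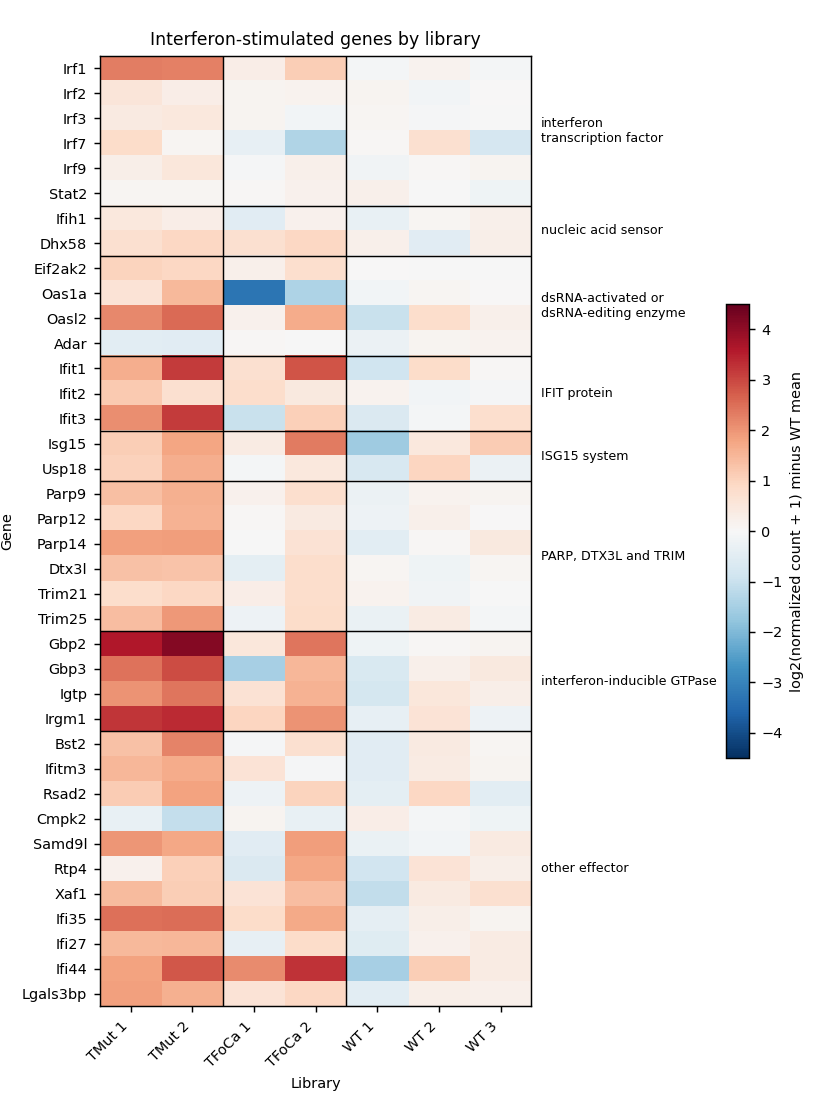
Heat map of 38 interferon-stimulated genes (rows, grouped by role) in 7 libraries (columns). Color is log2(normalized count + 1) minus the mean of the 3 WT libraries. Most rows are red in both TMut libraries, TFoCa replicate 2 is redder than TFoCa replicate 1, and Adar and Cmpk2 are blue in TMut.

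Promoter sequences were searched for 2 motifs of the interferon response. As the genes were listed as interferon-stimulated, more matches than in other genes do not test the list. RefSeq windows from 250 bases before to 50 bases after the gene start, in build GRCm38.p6, were at hand for 33 of the 40 listed genes, in 40 windows. The core of the interferon-stimulated response element, spelled GAAA, any 2 bases and GAAA, was searched on both strands and stood in 16 of these windows (40%), against 3.44% of all 32851 RefSeq windows and 2.84% of the 16224 windows of genes tested. TTCNNNGAA, the core of gamma-activated sites, reads the same on both strands and stood in 10 windows (25%), against 8.3% of all windows and 6.64% of those of genes tested. The 2 motifs overlapped in the windows of Bst2 and Ifitm3, and matches to the response element core overlapped each other in 6 windows. The windows held a median of 6.5 CG dinucleotides, the sites that TET enzymes act on once methylated, beside 7 over all windows and 19 over windows of genes tested. Of the 16 tested genes with the response element core, 10 rose and 0 fell in TMut against WT (median log2 fold change 1.52, from 0.10 to 3.86). Of the 16 tested genes with a window but without it, 9 rose and 1 fell (median 1.28, from -0.71 to 2.5), and the difference between these groups was not tested. A match is a stretch of letters, not evidence of binding.

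The windows below are those of the 5 genes with the response element core and the 2 without it that had the smallest adjusted p in TMut against WT, 5′ to 3′. Capitals mark that core or its reverse complement in the first 5, and TTCNNNGAA in Irf1 and Ifi35. They show how near the gene start the motifs lie. The first match to the response element core is 30 bases before it in Irgm1, 59 in Gbp2 and 130 in Bst2. In Eif2ak2 and Ifitm3 it is 18 and 2 bases after the start. TTCNNNGAA lies 90 bases before the start in Irf1 and 7 bases after it in Ifi35.
Irgm1 (chr11:48871371-48871670, minus strand): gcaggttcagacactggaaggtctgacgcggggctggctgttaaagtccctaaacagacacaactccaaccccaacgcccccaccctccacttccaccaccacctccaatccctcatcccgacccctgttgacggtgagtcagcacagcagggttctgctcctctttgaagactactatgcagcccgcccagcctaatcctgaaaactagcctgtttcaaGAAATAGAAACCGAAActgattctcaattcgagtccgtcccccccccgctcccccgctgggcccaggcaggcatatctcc
Gbp2 (chr3:142620413-142620712, plus strand): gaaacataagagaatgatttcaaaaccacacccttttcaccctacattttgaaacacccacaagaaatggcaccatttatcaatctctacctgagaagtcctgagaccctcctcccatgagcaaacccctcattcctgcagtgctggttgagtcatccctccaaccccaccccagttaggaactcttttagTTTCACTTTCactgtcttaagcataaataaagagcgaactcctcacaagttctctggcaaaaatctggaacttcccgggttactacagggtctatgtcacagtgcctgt
Eif2ak2 (chr17:78882523-78882822, minus strand): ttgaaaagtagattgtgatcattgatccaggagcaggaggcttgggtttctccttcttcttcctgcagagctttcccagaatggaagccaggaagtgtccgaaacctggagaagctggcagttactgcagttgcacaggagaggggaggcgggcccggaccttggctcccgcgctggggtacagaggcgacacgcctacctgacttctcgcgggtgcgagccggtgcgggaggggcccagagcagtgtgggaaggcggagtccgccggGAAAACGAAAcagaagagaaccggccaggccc
Ifitm3 (chr7:141010695-141010994, minus strand): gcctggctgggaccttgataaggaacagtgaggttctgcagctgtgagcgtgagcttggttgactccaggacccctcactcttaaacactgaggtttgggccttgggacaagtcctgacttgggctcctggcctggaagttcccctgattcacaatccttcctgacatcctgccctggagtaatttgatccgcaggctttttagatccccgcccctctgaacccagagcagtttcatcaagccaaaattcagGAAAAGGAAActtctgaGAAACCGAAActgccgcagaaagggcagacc
Bst2 (chr8:71537423-71537722, minus strand): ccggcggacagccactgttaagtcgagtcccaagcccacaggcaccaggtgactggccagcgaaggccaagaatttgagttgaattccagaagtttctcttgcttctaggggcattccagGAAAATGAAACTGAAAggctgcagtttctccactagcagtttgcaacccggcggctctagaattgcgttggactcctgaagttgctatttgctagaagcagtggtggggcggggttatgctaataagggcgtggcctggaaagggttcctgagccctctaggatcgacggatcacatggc
Irf1 (chr11:53769764-53770063, plus strand): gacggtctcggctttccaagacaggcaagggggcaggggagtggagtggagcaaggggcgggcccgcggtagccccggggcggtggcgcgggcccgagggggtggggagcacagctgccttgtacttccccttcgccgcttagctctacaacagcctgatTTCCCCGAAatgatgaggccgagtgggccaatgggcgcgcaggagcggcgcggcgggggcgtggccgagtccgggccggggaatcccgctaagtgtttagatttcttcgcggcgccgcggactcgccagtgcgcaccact
Ifi35 (chr11:101448162-101448461, plus strand): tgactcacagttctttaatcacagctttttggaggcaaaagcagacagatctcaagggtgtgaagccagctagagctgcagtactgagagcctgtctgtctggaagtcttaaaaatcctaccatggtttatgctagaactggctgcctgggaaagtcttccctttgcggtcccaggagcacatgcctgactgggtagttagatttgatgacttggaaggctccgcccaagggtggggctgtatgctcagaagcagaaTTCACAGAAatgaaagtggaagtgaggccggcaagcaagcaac
The windows range from 2 CG dinucleotides in Gbp2 to 32 in Irf1. As these genes were picked by their adjusted p in TMut, the windows do not show how CG content goes with the change.

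The transcription factors that drive the response split. Irf1, which interferon gamma induces, had 1807 and 1771 normalized counts in TMut libraries, 444 and 791 in TFoCa libraries, and 348, 408 and 343 in WT libraries. The groups did not overlap in any pair, and TMut stood far above both others. Its log2 fold change was 2.29 ± 0.24 in TMut against WT (4.89-fold, adjusted p = 0.000417) and 1.59 ± 0.26 in TMut against TFoCa (adjusted p = 0.00428), while TFoCa against WT gave 0.70 ± 0.24 (adjusted p = 0.112). Without TFoCa replicate 1, Irf1 was called higher in TFoCa than in WT (1.11, adjusted p = 0.0154). Irf2, which competes with IRF1 for the same element, and Irf3, the factor that sensors activate by phosphorylation, rose less. Irf2 had 1021 and 855 normalized counts in TMut, 765 and 784 in TFoCa, and 754, 638 and 696 in WT, with a log2 fold change in TMut against WT of 0.43 ± 0.14 (adjusted p = 0.0448). Irf3 had 3027 and 3210 in TMut, 2507 and 2092 in TFoCa, and 2413, 2226 and 2246 in WT, with a log2 fold change in TMut of 0.44 ± 0.11 against WT (adjusted p = 0.0162) and 0.44 ± 0.12 against TFoCa (adjusted p = 0.0254). Both TMut libraries lay above every WT library for Irf2 and Irf3. The Irf2 call against WT ended without WT replicate 1, 2 or 3 or TMut replicate 1 or 2 (adjusted p = 0.054, 0.148, 0.115, 0.215 and 0.0539), and the Irf3 call ended without WT replicate 2 (adjusted p = 0.0635), WT replicate 3 (0.0597) or TMut replicate 2 (0.0939).

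The other factors did not pass the test in any comparison. Stat2, which acts with IRF9 downstream of the type I receptor, had 1481 and 1485 normalized counts in TMut, 1444 and 1592 in TFoCa, and 1607, 1367 and 1203 in WT, and the groups overlapped. Its log2 fold change in TMut against WT was 0.10 ± 0.14, with a 95% interval from -0.22 to 0.43. Irf9 had 949 and 1131 in TMut, 765 and 938 in TFoCa, and 710, 831 and 859 in WT (0.38 ± 0.16 in TMut against WT, adjusted p = 0.0942). Irf7, the factor that amplifies interferon alpha production, was low in every library, at 36.9 and 21.6 in TMut, 15.3 and 7.30 in TFoCa, and 21.2, 33.6 and 11.5 in WT. Irf7 overlapped between TMut and WT, and its 95% interval for that log2 fold change ran from -0.92 to 1.84.

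The 2 genes classed here as RNA sensors, Ifih1 and Dhx58, were not called. Ifih1 encodes MDA5, which detects long double-stranded RNA, and had 177 and 156 normalized counts in TMut, 88.1 and 146 in TFoCa, and 101, 133 and 150 in WT. Dhx58 encodes LGP2, which modulates MDA5, and had 106 and 125 in TMut, 107 and 123 in TFoCa, and 75.3, 45 and 78.2 in WT. All libraries of both mutant genotypes lay above WT for Dhx58, with log2 fold changes of 0.83 ± 0.33 in TMut (adjusted p = 0.0804) and 0.83 ± 0.33 in TFoCa (adjusted p = 0.164). For Ifih1 the log2 fold change in TMut against WT was 0.39 ± 0.31 (adjusted p = 0.344), with a 95% interval from -0.32 to 1.11.

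Among sensors and factors 3 of 8 rose in TMut against WT, with a median log2 fold change of 0.43, and among effectors 19 of 30 rose and 1 fell, with a median of 1.53. In TFoCa against WT the medians were 0.11 for sensors and factors and 0.49 for effectors, with no call in either class by limma. TMut against TFoCa gave 2 of 8 higher among sensors and factors (median 0.37), and 13 higher and 1 lower of 30 among effectors (median 1.12). Whether the classes differ was not tested, since the members of a class are not replicates.

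**Figure D2:**
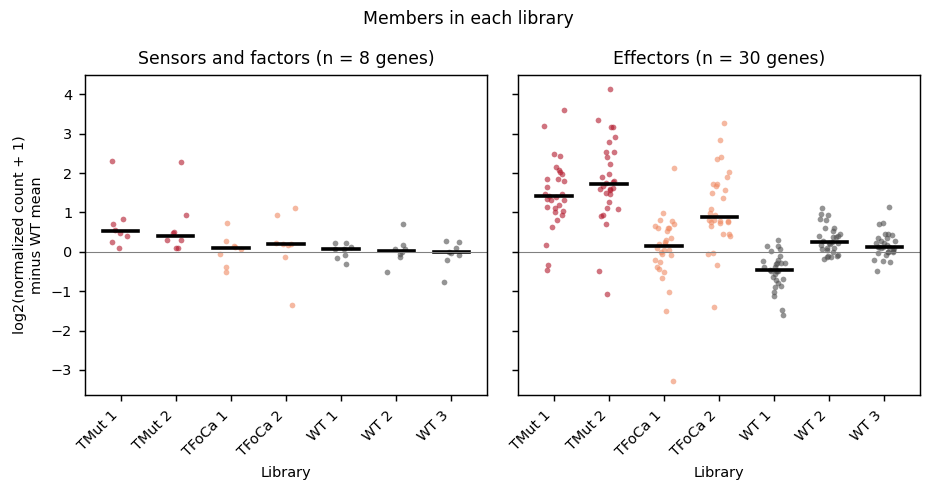
Each point is a gene in a library, as log2(normalized count + 1) minus the mean of the 3 WT libraries, for 8 sensors and factors (left) and 30 effectors (right), and bars are medians. The effector medians were 1.41 and 1.71 in TMut, 0.15 and 0.88 in TFoCa, and -0.47, 0.25 and 0.12 in WT.

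The enzymes that act on double-stranded RNA went different ways. Eif2ak2 encodes PKR, the kinase that halts translation when it binds double-stranded RNA, and had 1167 and 1100 normalized counts in TMut, 683 and 979 in TFoCa, and 584, 575 and 573 in WT. The groups did not overlap, and the log2 fold change in TMut against WT was 0.97 ± 0.17 (adjusted p = 0.00344). In TFoCa it was 0.50 ± 0.17 (adjusted p = 0.108), and 0.76 without TFoCa replicate 1 (adjusted p = 0.0239). Adar, the editing enzyme that converts adenosine to inosine in double-stranded RNA and so limits its sensing by MDA5, was the gene that fell. It had 2010 and 1962 normalized counts in TMut, 2849 and 2696 in TFoCa, and 2285, 2973 and 3101 in WT. The log2 fold change of Adar in TMut was -0.48 ± 0.14 against WT (adjusted p = 0.0315) and -0.48 ± 0.16 against TFoCa (adjusted p = 0.0448). Against WT this call ended without WT replicate 2 (adjusted p = 0.104), WT replicate 3 (0.104), TMut replicate 1 (0.09) or TMut replicate 2 (0.128).

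Oas1a and Oasl2 belong to the oligoadenylate synthetase family, which double-stranded RNA activates. Oas1a had 42.6 and 76.8 normalized counts in TMut, 1.92 and 9.74 in TFoCa, and 25.1, 29.2 and 27.6 in WT. The 3 groups did not overlap, with TFoCa lowest and TMut highest. Oas1a was higher in TMut than in TFoCa by 3.38 ± 0.67 log2 units (adjusted p = 0.00824), a call that ended without TMut replicate 2 (2.96, adjusted p = 0.0527). Against WT it gave 1.04 ± 0.61 in TMut (adjusted p = 0.213) and -2.34 ± 0.61 in TFoCa (adjusted p = 0.0559), and TFoCa was called lower than WT without TFoCa replicate 2 (-3.28, adjusted p = 0.0171). Oasl2 had 249 and 324 in TMut, 63.2 and 178 in TFoCa, and 26.7, 96.4 and 64.4 in WT, with a log2 fold change of 2.35 ± 0.61 in TMut against WT (adjusted p = 0.0184). That call ended without TMut replicate 1 (adjusted p = 0.0517) or TMut replicate 2 (0.0993). Reads of Oas1a and of close paralogs can be shared in a table of gene counts.

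The IFIT proteins bind foreign RNA. Ifit3 had 88.7 and 190 normalized counts in TMut, 9.58 and 43.8 in TFoCa, and 12.6, 19.0 and 34.5 in WT, so TMut lay above both other groups. Ifit3 rose in TMut by 2.62 ± 0.72 log2 units against WT (adjusted p = 0.023) and by 2.59 ± 0.78 against TFoCa (adjusted p = 0.0365), and its reads can be shared with its near copy Ifit3b. Ifit2 rose by 0.94 ± 0.27 in TMut against WT (adjusted p = 0.0289), from libraries of 184 and 132 in TMut and of 89.4, 74.8 and 78.2 in WT, with 139 and 111 in TFoCa. Ifit1 was at 23.0 and 67.2 in TMut, 11.5 and 53.6 in TFoCa, and 3.14, 12.7 and 6.90 in WT, which gave a log2 fold change in TMut against WT of 2.40 ± 0.83 (adjusted p = 0.053). Limma did not call Ifit1, while edgeR and DESeq2 called it higher. Without TFoCa replicate 1 or 2 limma called it too (adjusted p = 0.0295 and 0.0323, with up to 0.281 over the libraries left out). The Ifit3 call against WT ended without WT replicate 1 (adjusted p = 0.0674), WT replicate 2 (0.064) or TMut replicate 2 (0.144), and the Ifit2 call without WT replicate 1, 2 or 3 (0.0516, 0.0944 and 0.0881) or TMut replicate 1 (0.142).

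Isg15 encodes a ubiquitin-like modifier and Usp18 the protease that removes it and damps receptor signalling. Isg15 had 62.2 and 98.5 normalized counts in TMut, 36.4 and 148 in TFoCa, and 8.63, 39.3 and 63.3 in WT. All 3 groups overlapped, and the highest library was TFoCa replicate 2. The log2 fold change of Isg15 in TMut against WT was 1.44 ± 0.88 (adjusted p = 0.229), with a 95% interval from -0.60 to 3.48. Usp18 had 55.3 and 82.8 in TMut, 24.9 and 36.5 in TFoCa, and 15.7, 52.0 and 21.9 in WT (1.33 ± 0.55 in TMut against WT, adjusted p = 0.09). Usp18 was called in TMut without WT replicate 2 (1.81, adjusted p = 0.0361).

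All 6 genes of the PARP, DTX3L and TRIM group rose in TMut against WT, with log2 fold changes from 0.86 to 1.88, and 0 of 6 were called in TFoCa, where they ran from 0.17 to 0.55. Parp9 and Dtx3l encode partners in 1 ADP-ribosylation and ubiquitination complex. Parp9 had 401 and 480 normalized counts in TMut, 180 and 268 in TFoCa, and 129, 177 and 170 in WT (1.47 ± 0.26 in TMut against WT, adjusted p = 0.00356). Dtx3l had 385 and 375 in TMut, 114 and 264 in TFoCa, and 163, 136 and 165 in WT (1.30 ± 0.34, adjusted p = 0.0204). Both pairs of TMut libraries lay above every other library. Parp14, a mono-ADP-ribosyltransferase, had 180 and 185 in TMut, 48.9 and 77.9 in TFoCa, and 34.5, 50.7 and 66.7 in WT (1.88 ± 0.37, adjusted p = 0.0063), and Parp12, of the same family, rose by 1.25 ± 0.25 (adjusted p = 0.00637). Trim25, a ubiquitin ligase that acts with RNA sensors, had 1694 and 2526 in TMut, 544 and 1138 in TFoCa, and 523, 842 and 610 in WT (1.68 ± 0.34, adjusted p = 0.00697). Trim21, a ubiquitin ligase that binds antibody in the cytosol, rose by 0.86 ± 0.22 (adjusted p = 0.0176). Of these calls, that of Trim25 ended without TMut replicate 2 (adjusted p = 0.0564), that of Trim21 without WT replicate 2 (0.0672), WT replicate 3 (0.0588) or TMut replicate 2 (0.0876), and that of Dtx3l without WT replicate 2 (0.067), WT replicate 3 (0.0535), TMut replicate 1 (0.075) or TMut replicate 2 (0.082).

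The interferon-inducible GTPases, which act at the vacuoles of intracellular pathogens, rose in TMut against WT, 4 of 4. Gbp2 and Irgm1 had the highest fold changes of the 38 genes in that comparison, under every alternative run as well. Gbp2, a guanylate-binding protein, had 491 and 714 normalized counts in TMut, 57.5 and 214 in TFoCa, and 34.5, 41.8 and 43.7 in WT. Irgm1, an immunity-related GTPase, had 704 and 783 in TMut, 149 and 313 in TFoCa, and 58.1, 115 and 64.4 in WT. In both genes the 3 groups did not overlap, with TFoCa between TMut and WT. Gbp2 rose 14.5-fold in TMut against WT (log2 fold change 3.86 ± 0.52, adjusted p = 0.00117) and Irgm1 9.72-fold (3.28 ± 0.40, adjusted p = 0.00076). Both were also higher in TMut than in TFoCa, Gbp2 by 2.40 ± 0.56 (adjusted p = 0.015) and Irgm1 by 1.77 ± 0.43 (adjusted p = 0.0173). In TFoCa against WT, Gbp2 gave 1.46 ± 0.52 (adjusted p = 0.124) and Irgm1 1.51 ± 0.40 (adjusted p = 0.056), and without TFoCa replicate 1 both were called (2.40, adjusted p = 0.0131, and 2.04, adjusted p = 0.0294).

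Igtp, another immunity-related GTPase, had 196 and 256 normalized counts in TMut, 74.7 and 141 in TFoCa, and 26.7, 68.5 and 57.5 in WT (2.22 ± 0.47 in TMut against WT, adjusted p = 0.00817). Gbp3 had 104 and 145 in TMut, 5.75 and 53.6 in TFoCa, and 11, 21.6 and 25.3 in WT (2.69 ± 0.84, adjusted p = 0.037). The TFoCa libraries of Gbp3 fell on either side of the WT range. The Igtp call ended without TMut replicate 2 (adjusted p = 0.0559), and that of Gbp3 without WT replicate 1, 2 or 3 (0.101, 0.0768 and 0.068) or TMut replicate 1 or 2 (0.0876 and 0.159). Members of the guanylate-binding protein family are similar in sequence, so their reads may be shared.

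**Figure D3:**
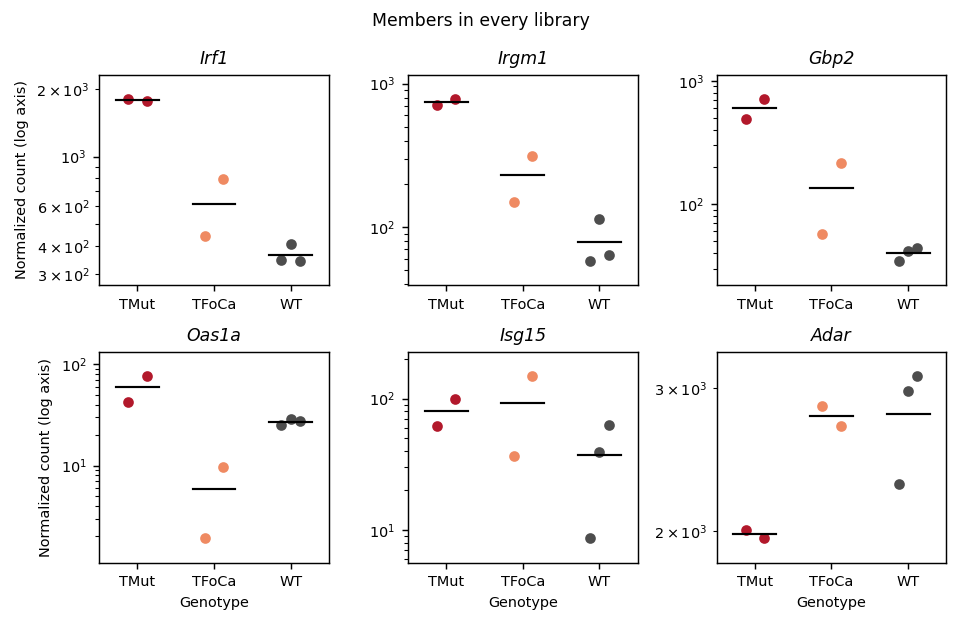
Normalized counts (log axis) of Irf1, Irgm1, Gbp2, Oas1a, Isg15 and Adar in each library of TMut, TFoCa and WT, with points for libraries and bars for means. TMut is highest for Irf1, Irgm1, Gbp2 and Oas1a, the groups overlap for Isg15, and TMut is lowest for Adar.

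Of the 11 other effectors, 5 rose in TMut against WT. Ifi35, a partner of NMI in cytokine signalling, had 624 and 642 normalized counts in TMut, 196 and 366 in TFoCa, and 83.9, 134 and 121 in WT. Ifitm3, which blocks viral entry in endosomes, had 5265 and 6019 in TMut, 2879 and 1820 in TFoCa, and 1339, 2450 and 2058 in WT. Bst2 encodes tetherin, which holds budding virions at the cell surface, and had 2012 and 3807 in TMut, 780 and 1341 in TFoCa, and 573, 1061 and 869 in WT. For these genes TMut lay above both other groups, and the TFoCa libraries lay above WT for Ifi35 alone. Ifi35 rose by 2.5 ± 0.32 log2 units in TMut against WT (adjusted p = 0.000954), Bst2 by 1.77 ± 0.36 (adjusted p = 0.00721) and Ifitm3 by 1.57 ± 0.28 (adjusted p = 0.00374). Lgals3bp, a secreted glycoprotein, rose by 1.72 ± 0.26 (adjusted p = 0.00208), with 863 and 724 in TMut, 364 and 460 in TFoCa, and 169, 286 and 281 in WT. Ifi27 rose by 1.48 ± 0.37 (adjusted p = 0.0167), with 1496 and 1514 in TMut, 415 and 942 in TFoCa, and 366, 614 and 690 in WT. The Bst2 call ended without TMut replicate 2 (adjusted p = 0.0555), and that of Ifi27 without TMut replicate 1 (0.0623) or TMut replicate 2 (0.0773). Ifi35 in TFoCa against WT gave 1.27 ± 0.32 and missed the threshold (adjusted p = 0.05 after rounding), and was called without TFoCa replicate 1 (1.72, adjusted p = 0.0237).

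The remaining 6 were not called by limma in TMut against WT, though DESeq2 and limma-voom called Samd9l and Ifi44 higher and edgeR called Samd9l. Ifi44 had 39.2 and 79.2 normalized counts in TMut, 49.8 and 110 in TFoCa, and 3.14, 24.1 and 13.8 in WT. Every mutant library of Ifi44 lay above every WT library, with log2 fold changes of 2.30 ± 0.79 in TMut (adjusted p = 0.0524) and 2.7 ± 0.79 in TFoCa (adjusted p = 0.0752), and without WT replicate 2 limma called it in TMut (2.86, adjusted p = 0.0362, with up to 0.243 over the libraries left out). Samd9l, an antiviral factor, gave 1.87 ± 0.66 in TMut (adjusted p = 0.0571), with 124 and 106 in TMut, 21.1 and 117 in TFoCa, and 25.1, 27.9 and 41.4 in WT. Limma called Samd9l in TMut without TFoCa replicate 1 or 2 (adjusted p = 0.00481 and 0.00617, with up to 0.173 over the libraries left out), and in TFoCa against WT without TFoCa replicate 1 (1.89, adjusted p = 0.041). Rsad2 encodes viperin, which makes a chain-terminating nucleotide, and its neighbour Cmpk2 encodes a nucleotide kinase that supplies it. Rsad2 was at 16.1 and 26.4 in TMut, 5.75 and 14.6 in TFoCa, and 4.71, 13.9 and 4.60 in WT (1.47 ± 0.67 in TMut against WT, adjusted p = 0.119). Cmpk2 was at 122 and 72.0 in TMut, 166 and 122 in TFoCa, and 190, 143 and 133 in WT (-0.71 ± 0.32, adjusted p = 0.12), so both TMut libraries lay above WT for Rsad2 and below it for Cmpk2. Xaf1 and Rtp4 had log2 fold changes in TMut against WT of 1.27 ± 0.54 (adjusted p = 0.0978) and 0.63 ± 0.76 (adjusted p = 0.541).

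**Figure D4:**
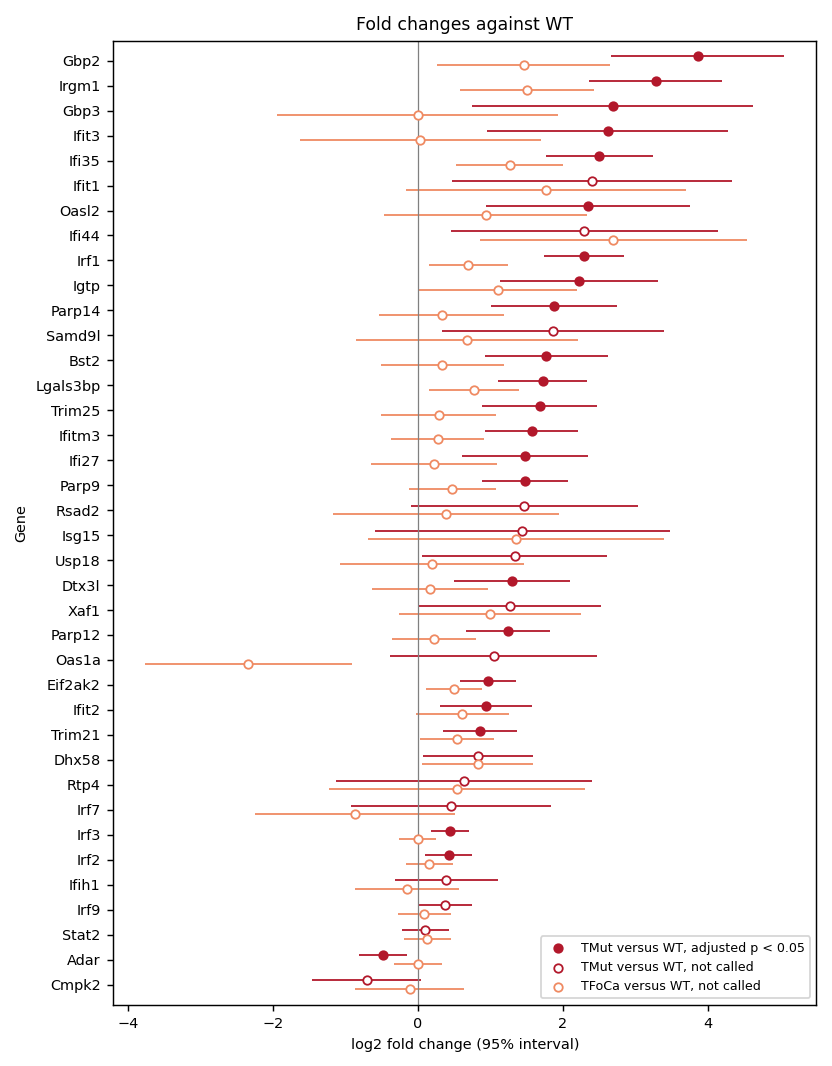
Log2 fold changes against WT with 95% intervals for 38 genes, in TMut (red) and TFoCa (orange), which share the WT libraries. Filled points passed an adjusted p of 0.05 by limma: 23 in TMut and 0 in TFoCa.

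Of the 23 genes called in TMut against WT, 10 kept their call whichever library was left out: Irf1, Eif2ak2, Parp9, Parp12, Parp14, Gbp2, Irgm1, Ifitm3, Ifi35 and Lgals3bp. The count called higher ran from 11, without TMut replicate 2, to 24. The 2 TFoCa lines differed from each other across these genes. Taking each gene's deviation from the WT mean, the median over the 38 was 0.12 in TFoCa replicate 1 and 0.80 in TFoCa replicate 2, against 1.31 and 1.60 in TMut replicates 1 and 2 and -0.31, 0.18 and 0.11 in WT replicates 1, 2 and 3. TFoCa replicate 1 was the higher of the pair for 6 of 38 genes, and TMut replicate 1 for 12 of 38. Replicate 1 thus had the lowest median in all 3 genotypes. Whether libraries of 1 replicate number share a source of variation over these genes was not tested. The median absolute gap between the TFoCa lines was 0.81 log2 units over these genes and 0.31 over all genes tested, while between the TMut lines it was 0.28 and 0.24. The WT lines were also further apart over these genes. Their highest minus lowest of 3 had a median of 0.73 here and 0.285 over all genes. That range is not the same measure as a gap between 2 lines. It passed 1 log2 unit for 12 of the 38 genes in WT, and the gap did for 15 in TFoCa and 2 in TMut. WT replicate 1 was the lowest WT library on this measure, with a median over the effectors of -0.47. Without TFoCa replicate 1 the median log2 fold change over the 38 genes in TFoCa against WT was 0.80. Without TFoCa replicate 2, Oas1a gave -3.28 in that comparison.

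TMut against TFoCa tests the difference between the mutant genotypes without the WT libraries in the contrast. The 15 genes higher in TMut were Irf1, Irf3, Oas1a, Ifit3, Parp9, Parp12, Parp14, Trim25, Gbp2, Irgm1, Bst2, Ifitm3, Ifi35, Ifi27 and Lgals3bp, and Adar was lower. All but Oas1a were also called in TMut against WT, and 8 genes called against WT were not called against TFoCa. Irf1 kept its call whichever library was left out. Without TMut replicate 2 the other 15 calls ended (adjusted p from 0.0527 for Oas1a to 0.181 for Ifit3), and the count called higher was 1. Without TFoCa replicate 1, 11 calls ended (Adar, Ifit3, Parp9, Parp12, Parp14, Trim25, Irgm1, Bst2, Ifi35, Ifi27 and Lgals3bp, adjusted p from 0.0636 to 0.181), and the median log2 fold change was 0.62. Fewer calls ended with the other libraries left out: 6 without WT replicate 2 (adjusted p from 0.0503 to 0.0715), 5 without WT replicate 3 (0.0506 to 0.059), 6 without TMut replicate 1 (0.053 to 0.133) and 3 without TFoCa replicate 2 (0.0591 to 0.0778). Leaving out TFoCa replicate 2 also brought calls for Eif2ak2, Dtx3l, Gbp3 and Samd9l (adjusted p from 0.00591 to 0.0129). A fit to the TMut and TFoCa libraries alone, with 2 lines each, called 5 of the 38 higher and 0 lower. Of all 18134 genes, that fit called 3419 in either direction.

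The pathway upstream of these genes was read from lists of genes outside the 38. No interferon gene could be followed: the 21 ligand genes listed were not analysed here. All 6 receptor genes had values, and 4 rose in TMut against WT and 0 fell, beside 18.4% and 20.4% of all genes. Il10rb, a subunit shared by the interferon lambda and interleukin-10 receptors, had 446 and 611 normalized counts in TMut, 280 and 153 in TFoCa, and 101, 130 and 124 in WT (2.14 ± 0.30, adjusted p = 0.00151). Ifnar2, the ligand-binding subunit of the type I receptor that USP18 engages, had 1284 and 1387 in TMut, 917 and 902 in TFoCa, and 776, 712 and 701 in WT (0.87 ± 0.12, adjusted p = 0.00119). Ifngr2, of the interferon gamma receptor, rose by 0.69 ± 0.11 (adjusted p = 0.00245), and Ifnlr1, of the interferon lambda receptor, by 1.43 ± 0.39 (adjusted p = 0.0234). Ifnar1 (0.25 ± 0.10, adjusted p = 0.0827) and Ifngr1 (0.53 ± 0.23, adjusted p = 0.11) were not called. In TFoCa against WT 0 of 6 receptor genes were called. The Ifnlr1 call ended without WT replicate 3 (adjusted p = 0.0743) or TMut replicate 2 (0.124), and Ifngr1 was called in TMut without TFoCa replicate 1 or 2 (0.0119 and 0.011). Without TFoCa replicate 2, Ifngr1 and Il10rb were called higher in TFoCa (0.0401 and 0.0433).

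Of 12 receptor kinases, STATs and inhibitors, 6 rose in TMut and 2 in TFoCa against WT, beside 18.4% and 5.25% of all genes, and 0 fell in each, beside 20.4% and 3.52%. Jak1, a kinase of all interferon receptors, rose by 0.92 ± 0.13 in TMut (adjusted p = 0.00134) and gave 0.20 ± 0.13 in TFoCa (adjusted p = 0.373). Stat3 and its target Socs3, which serve the interleukin-6 family of cytokines, rose in both mutant genotypes. Stat3 had 8619 and 7524 normalized counts in TMut, 7282 and 8983 in TFoCa, and 4071, 4275 and 3993 in WT, with log2 fold changes of 0.97 ± 0.12 in TMut (adjusted p = 0.00079) and 0.98 ± 0.12 in TFoCa (adjusted p = 0.00498). Socs3 had 2663 and 3457 in TMut, 3640 and 3688 in TFoCa, and 1581, 1288 and 1248 in WT (1.15 ± 0.15, adjusted p = 0.00107, and 1.42 ± 0.15, adjusted p = 0.00319). Every library of both mutant genotypes lay above WT for Stat3 and Socs3. Ptpn6, a phosphatase, was not called against WT in TMut (0.27 ± 0.36, adjusted p = 0.574) or TFoCa (-1.05 ± 0.36, adjusted p = 0.111) by limma, while DESeq2 called it lower in TFoCa. It was higher in TMut than in TFoCa (1.33 ± 0.39, adjusted p = 0.0326), a call that ended without WT replicate 1 (0.0501), TFoCa replicate 2 (0.111) or TMut replicate 2 (0.166).

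Of 19 measured genes of the sensing pathway outside the 38, 6 rose and 4 fell in TMut, beside 18.4% and 20.4% of all genes, and 0 rose and 2 fell in TFoCa, beside 5.25% and 3.52%. The number that fell in TMut is near the share over all genes. Ticam1, the adaptor of the endosomal RNA receptor TLR3, had 1044 and 1037 normalized counts in TMut, 573 and 663 in TFoCa, and 497, 494 and 448 in WT (1.12 ± 0.14 in TMut, adjusted p = 0.000818). Ikbke, a kinase that acts on IRF3 and IRF7, had 358 and 268 in TMut, 169 and 147 in TFoCa, and 104, 80.5 and 93.2 in WT (1.74 ± 0.25, adjusted p = 0.00152). Rnaseh2a and Rnaseh2b, subunits of the nuclease that removes RNA from DNA, fell in TFoCa by 0.60 ± 0.10 and 0.76 ± 0.11 (adjusted p = 0.0133 and 0.00926), and the Rnaseh2a call ended without WT replicate 2 or 3 (0.0576 and 0.058). Sting1, the adaptor of the cytosolic DNA sensor, had 229 and 168 in TMut, 90.0 and 285 in TFoCa, and 39.2, 34.2 and 69.0 in WT. Its log2 fold change was 2.09 ± 0.52 in TMut (adjusted p = 0.0164) and 1.80 ± 0.52 in TFoCa (adjusted p = 0.0735, though DESeq2 called it). The Sting1 call in TMut ended without WT replicate 2 (adjusted p = 0.0548), TMut replicate 1 (0.0805) or TMut replicate 2 (0.0516), and it was called in TFoCa without TFoCa replicate 1 (0.0234).

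Of 43 other measured interferon-stimulated genes, 20 rose and 3 fell in TMut against WT (median log2 fold change 1.32), beside 18.4% and 20.4% of all genes. In TFoCa 2 rose and 1 fell (median 0.46), beside 5.25% and 3.52%. Iigp1, an immunity-related GTPase, had 207 and 401 normalized counts in TMut, 67.1 and 68.2 in TFoCa, and 1.57, 6.34 and 4.60 in WT. Both mutant genotypes lay far above WT, by 5.94 ± 0.55 in TMut (adjusted p = 0.000275) and 3.86 ± 0.55 in TFoCa (adjusted p = 0.00832). Tgtp1 is another immunity-related GTPase, and its reads can be shared with its near copy Tgtp2. Tgtp1 had 86.4 and 157 in TMut, 5.75 and 4.87 in TFoCa, and 1.57, 0 and 4.60 in WT (5.60 ± 0.77 in TMut, adjusted p = 0.00133). Ifitm2, a paralog of Ifitm3, rose by 1.32 ± 0.14 in TMut (adjusted p = 0.000417), while Gbp9 rose in both, by 1.55 ± 0.32 in TMut (adjusted p = 0.00775) and by 1.70 ± 0.32 in TFoCa (adjusted p = 0.0201). Phf11d went down in both, at 46.1 and 106 in TMut, 5.75 and 9.74 in TFoCa, and 163, 299.8 and 163 in WT, with log2 fold changes of -1.50 ± 0.48 in TMut (adjusted p = 0.0417) and -4.56 ± 0.48 in TFoCa (adjusted p = 0.00321). The TMut call of Phf11d ended without WT replicate 1, 2 or 3 (adjusted p = 0.0698, 0.14 and 0.0795) or TMut replicate 1 (0.216), and the TFoCa call of Gbp9 without WT replicate 2 (0.0713) or TFoCa replicate 2 (0.068).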

How the data were processed

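Per the submitters' processing notes, the authors' tools, listed without role or order, were STAR 2.7.3a, Trim Galore 0.6.5, SAMtools, DESeq2 and featureCounts, and the build was mm39. Settings, strand and annotation are not given in the sources used here. The deposited table holds normalized counts (signal), gene counts divided by a size factor per library. Within a column 100% of values were whole multiples of 1 step within 0.01 read, which gave reads for the count tests. In WT replicate 2 the smallest value is 2 reads, so its step came from gaps between low values. Among low values (1 to 20 reads), even numbers made up 70.29% to 79.32%; whether both mates of a pair were counted is not given in the sources used here.

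The 18134 of 18145 genes that reached 10 normalized counts in 2 libraries or more entered limma 3.58.1 in R 4.3.3, with an intensity trend on log2(value + 1), in 1 model over 3 genotypes with 4 residual degrees of freedom. edgeR 4.0.16, DESeq2 1.42.0, limma-voom, other pseudocounts, filters, factors, a 2-genotype fit, a replicate block and leaving out each library were alternatives. Where 1 library of a genotype is left, it is assumed to vary like the others. On simulated data 88%, 90% and 82% of genes changed by 1 log2 unit were recovered in TMut versus WT, TFoCa versus WT and TMut versus TFoCa, among 18094, 18086 and 18085 genes. Recovery was not estimated for the 38 interferon-stimulated genes apart. Between the TFoCa lines the median absolute gap was 0.81 log2 units over these 38 genes and 0.31 over all genes tested. The percentages therefore do not say how often a change of that size in the 38 genes would be called. Libraries that share a replicate number were not treated as pairs: deviations from group means correlated by 0.0192 to 0.185 between libraries of 1 number. P-values measure the spread between these lines, and no batch is labelled.

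The genes named are the 40 listed, the interferon receptors and, of each other pathway list, the 3 with the smallest adjusted p in TMut versus WT and in TFoCa versus WT; some genes that this rule names are not reported here. Members and lists were chosen with earlier results of these data known, so no list was tested. Promoter sequences are RefSeq's, in GRCm38.p6; no coordinates were taken from or moved to mm39.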

Additional observations from a re-analysis of the deposited data

How the results depend on the processing

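The median log2 fold change of the 38 genes stayed positive in each comparison under every alternative run, from 1.23 to 1.63 in TMut versus WT, 0.12 to 0.80 in TFoCa versus WT and 0.62 to 1.29 in TMut versus TFoCa, with 0.80 and 0.62 without TFoCa replicate 1. No called gene changed sign. In TMut versus WT, leaving out 1 library gave 11 to 24 genes higher and 0 to 1 lower, and TFoCa versus WT gave 0 to 6 and 0 to 1, while TMut versus TFoCa gave 1 to 17 and 0 to 1. In TFoCa versus WT the count higher was 1 at a mean of 50 or more, 1 with TMM factors, 2 with edgeR and 7 with DESeq2, which also called 1 lower, against 0 and 0. In TMut versus TFoCa the 2-genotype fit gave 5 higher and 0 lower and limma-voom gave 0 lower, against 15 and 1. With the replicate block, 0 genes were lower in TMut versus WT and 0 in TMut versus TFoCa, against 1 each, and calls numbered 20 and 14 against 23 and 16. In TMut versus WT the block ended 6 calls (Irf2, Irf3, Adar, Ifit2, Dtx3l and Trim21) and brought 3 (Ifit1, Isg15 and Ifi44), and in TMut versus TFoCa it ended 3 (Irf3, Adar and Lgals3bp) and brought 1 (Gbp3). Over all genes, calls in TMut versus WT were 4620 with the block against 7043. In TFoCa versus WT they were 555 with the block and 2947 with DESeq2 against 1590. In TMut versus TFoCa they were 3419 with the 2-genotype fit against 6491. The cause of these differences was not tested; the 2-genotype fit and leaving out a library also use fewer samples. Low counts limit Ifit1, Irf7, Isg15, Rsad2, Oas1a, Usp18, Rtp4, Ifi44 and Samd9l, each under 100 normalized counts in most libraries. The same holds for Ifit3, Gbp3, Parp14, Oasl2, Igtp and Gbp2, which were called in TMut versus WT. Outside the 38, Tgtp1 and Iigp1 gave 5.60 and 5.94 log2 units in TMut versus WT, and 3.66 and 4.63 with a pseudocount of 8. Having 2 lines a mutant genotype limits all genes.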
